A study of Salmo salar with 13 samples.

Results

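RNA sequencing of the saccus vasculosus (SV), a folded and richly vascularised organ on the floor of the fish hypothalamus, was used to follow 2 transcripts for brain fatty acid binding protein in Atlantic salmon, fabp7 (ENSSSAT00000153314) and fabp7b (ENSSSAT00000171206). They were found by their transcript identifiers and make up 2 of the 146780 transcripts listed for each library. Fish of the Aquagen commercial strain came from 2 photoperiod histories. SPLL fish spent 8 weeks in short photoperiod (8 h of light per day) and then 8 weeks in constant light, whereas SP-hold fish stayed in short photoperiod for all 16 weeks. SVs were taken in freshwater (FW) or after 24 h in seawater (SW) at 34‰, which gave 4 SPLL SW, 2 SPLL FW, 3 SP-hold SW and 4 SP-hold FW libraries. All fish were 11 months old at the start, their sex was not determined, and each treatment was run in duplicate tanks that the labels do not assign to libraries. Because the fish were moved to seawater under constant light, transfer changed salinity and lighting together for SP-hold fish, and in them the 2 cannot be told apart.

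FABP7 belongs to the intracellular lipid-binding proteins, small barrel-shaped proteins that hold a fatty acid or related lipid and carry it through the cytoplasm. In the vertebrate brain it is best known as a protein of radial glia, astrocytes and tanycytes, the glial cells that line the ventricles, and it has a high affinity for long-chain polyunsaturated fatty acids such as docosahexaenoic acid. In rodents, Fabp7 transcript in tanycytes and astrocytes is known to vary over the day. Salmonids carry additional gene copies from an ancestral genome duplication.

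Both salmon transcripts were matched in the study's annotation to fabp7b of zebrafish and Fabp7 of mouse, and RefSeq's annotation of the same build (Ssal_v3.1) listed 0 genes named fabp7a. The fabp7 gene (ENSSSAG00000080668) lies on chromosome 15 at 37526558 to 37528548, and its transcript is 713 nt long. RefSeq placed its fabp7 gene, with the synonym fabp7bI, at 37526577 to 37528548. The fabp7b gene (ENSSSAG00000086777) lies on chromosome 6 at 61824725 to 61827644, with a transcript model of 2786 nt. RefSeq's fabp7b, with the synonym fabp7bii, covered only 61824745 to 61825476, a span of 732 bp. The rest of the longer model ran into the RefSeq gene pkib, which encodes a protein kinase A inhibitor, with 1676 bp in common. Reads of pkib assigned to this model and reads shared by the 2 paralogs were not separated here, and the fabp7b level per length rests on the long model.

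fabp7 was one of the most abundant transcripts of the SV. It averaged 5076 ± 1416 TPM (a level scaled for transcript length and library total; SD, n = 13), or 0.508% of all TPM, and its mean level ranked 22 among all transcripts. Its rank within single libraries ran between 14 and 28. fabp7b averaged 196 ± 45.7 TPM (SD, n = 13), and its mean level ranked 452. Per length, fabp7 was 26.0 ± 4.04 times as abundant as fabp7b (SD, n = 13) and made up 96.2 ± 0.643% of their summed TPM. In reads, which are not divided by length, fabp7 made up 85.8 ± 2.04%. The share of summed TPM was 96.4 ± 0.714% in SPLL SW (n = 4), 96.0 ± 0.127% in SPLL FW (n = 2), 95.7 ± 1.00% in SP-hold SW (n = 3) and 96.5 ± 0.167% in SP-hold FW (n = 4), and in single libraries it lay between 94.6 and 97.0%.

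Photoperiod history was the first comparison, which asked whether SV transcripts differed between SPLL fish and fish kept in short photoperiod. Both transcripts had higher mean levels in SPLL fish. In reads not divided by length, fabp7b rose 1.92-fold in SPLL SW against SP-hold SW. It rose 1.79-fold when the photoperiod difference was averaged over FW and SW, and both differences passed the test. fabp7 had a fold change of similar size, 1.86-fold averaged over FW and SW, with a wider error, and did not pass it. In TPM the SW difference of fabp7b was smaller, with means of 234 in SPLL SW and 171 in SP-hold SW. A limma fit on log2(TPM + 1) gave it a log2 fold change of 0.47 in SW (FDR 0.245).

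For fabp7, the 4 SPLL SW libraries had 4992, 8111, 7169 and 5470.5 TPM, and the 2 SPLL FW libraries had 5445 and 6056 TPM. The 3 SP-hold SW libraries had 3377, 3506 and 4646 TPM, and the 4 SP-hold FW libraries had 4006, 4783, 4905 and 3522 TPM. Every SPLL library stood above every SP-hold library, although the lowest SPLL library (4992 TPM) and the highest SP-hold library (4905 TPM) were close. Of the 46383 transcripts tested, 62 (0.134%) had all SPLL libraries above all SP-hold libraries in TPM. The group means and SDs were 6436 ± 1456 TPM in SPLL SW (n = 4) and 5751 ± 432 TPM in SPLL FW (n = 2), against 3843 ± 699 TPM in SP-hold SW (n = 3) and 4304 ± 656 TPM in SP-hold FW (n = 4).

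**Figure D1:**
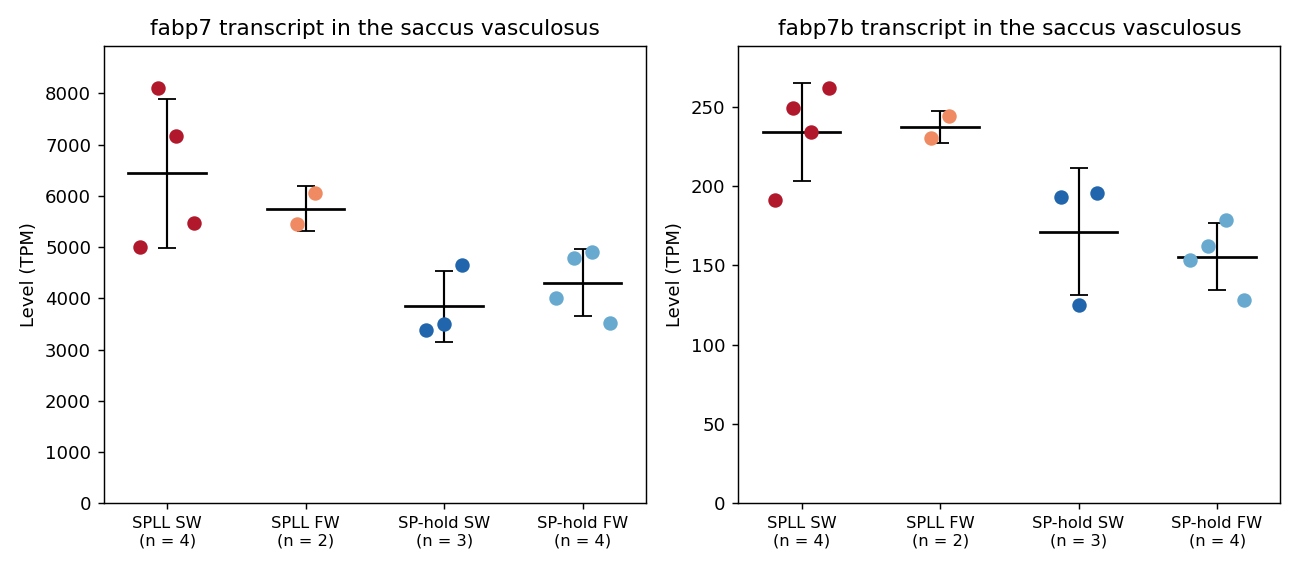
Level in TPM of fabp7 (left) and fabp7b (right) in each of the 13 SV libraries (points), by group, with the group mean (horizontal line) and SD (bar). For fabp7 all 6 SPLL libraries lie above the 7 SP-hold libraries, and for fabp7b the lowest SPLL SW library (191 TPM) lies below 2 SP-hold SW libraries (193 and 196 TPM).

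For fabp7b, the 4 SPLL SW libraries had 191, 249, 234 and 262 TPM, and the 2 SPLL FW libraries had 230.0 and 244 TPM. The 3 SP-hold SW libraries had 193, 125 and 196 TPM, and the 4 SP-hold FW libraries had 153, 162, 179 and 128 TPM. The photoperiod groups thus overlapped in TPM, with SPLL SW replicate 1 below 2 SP-hold SW libraries. CPM, the scale of the edgeR tests, are reads not divided by length. They were scaled to the library total after TMM adjustment, which corrects that total for differences in composition between libraries. In CPM, fabp7b had 344, 338, 518 and 366 CPM in SPLL SW and 391.4 and 469 CPM in SPLL FW. It had 190.4, 208 and 213 CPM in SP-hold SW and 220.0, 245, 299 and 265 CPM in SP-hold FW. On this scale every SPLL library stood above every SP-hold library, which held for 337 of the 46383 transcripts tested (0.727%). fabp7 overlapped on this scale, where the lowest SPLL library, with 1754 CPM, lay below the highest SP-hold library, with 1867 CPM.

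In the edgeR quasi-likelihood test, fabp7b had a log2 fold change of 0.94 (SE 0.17, FDR 0.0225) for SPLL SW against SP-hold SW. FDR values are Benjamini-Hochberg adjusted over all tested transcripts, of which 1.42% were called higher in this contrast. Averaged over FW and SW the change was 0.84 (SE 0.12, FDR 0.0238), with 0.272% of transcripts called higher. In FW alone it was 0.74 (SE 0.18, FDR 0.248), where SPLL FW had only 2 libraries and 0.0108% of transcripts were called higher. DESeq2 called fabp7b in FW as well (FDR 0.00971), along with 3.24% of all transcripts in either direction. In the test over the 4 groups, fabp7b had an FDR of 0.0443, short of the threshold of 0.01 that 0.0625% of transcripts passed. The study's own edgeR test called fabp7b at that threshold, so its call was not reproduced here. The study read its counts with catchSalmon, whereas the fit here took rounded estimated counts and called 29 transcripts. The source of the difference was not tested. The study chose fabp7b on these libraries as one of its photoperiod-dependent transcripts, so its direction here is not independent evidence.

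fabp7 had a log2 fold change of 1.15 (SE 0.30, FDR 0.0663) for SPLL SW against SP-hold SW, 0.65 (SE 0.32, FDR 0.629) for SPLL FW against SP-hold FW and 0.90 (SE 0.22, FDR 0.0856) averaged over FW and SW. Its FDR over the 4 groups was 0.163. fabp7 thus passed no contrast in the main edgeR fit, although edgeR with a filter at a mean CPM of at least 5 called it in SW (FDR 0.0377). DESeq2 called it in SW (FDR 0.0019), averaged over FW and SW (FDR 0.00188) and over the 4 groups (FDR 0.00523). DESeq2 called far more transcripts in general, 11.8%, 9.27% and 7.43% of all tested in these comparisons in either direction. The estimates for the paralogs differed by less than the SE of fabp7 in each photoperiod contrast. Whether the paralogs differed from each other in their response was not tested.

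**Figure D2:**
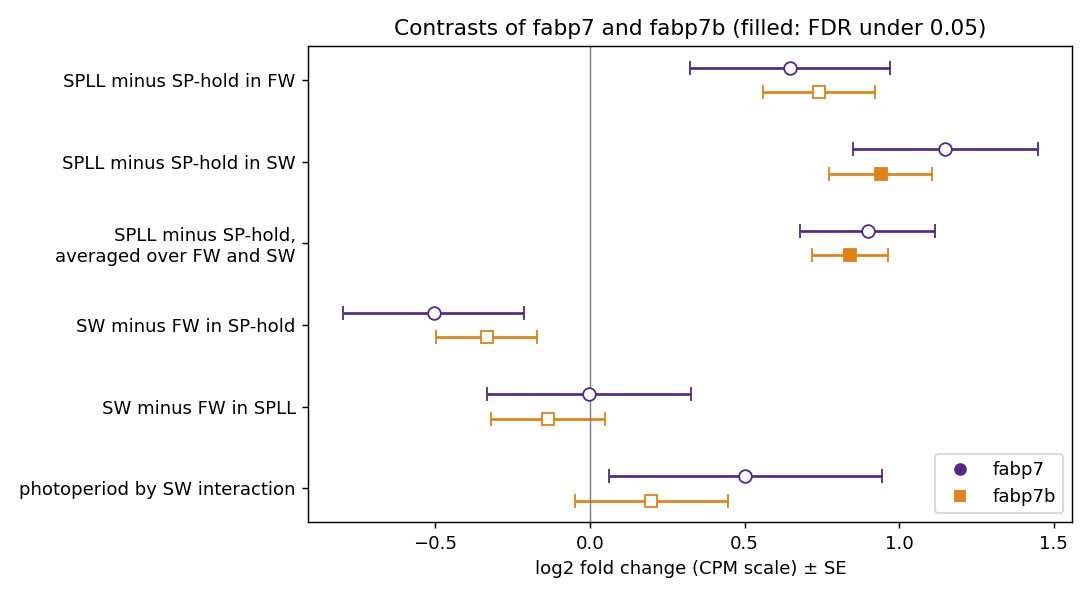
Log2 fold changes (CPM scale) of fabp7 (circles) and fabp7b (squares) in 6 contrasts, with bars of 1 SE; filled symbols have an FDR under 0.05. All 3 photoperiod contrasts are positive for both, with fabp7b filled in SW (0.94) and in the average (0.84), and no seawater contrast or interaction is filled.

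Libraries differed in ways that moved with photoperiod. Short transcripts were higher in SPLL libraries: in the averaged contrast the median log2 fold change was 0.37 for the 2075 tested transcripts under 1000 nt, 0.09 for the 18980 from 1000 to 3000 nt and -0.18 for the 25328 of 3000 nt or more. fabp7, at 713 nt, is in the first class and fabp7b, as modelled, in the second. With an offset for transcript length in each library, chosen after seeing the data, the averaged change of fabp7 was 0.53 (FDR 0.136) and its change in SW 0.69 (FDR 0.0888). The same offset left fabp7b at 0.86 (FDR 0.0298) and at 1.00 in SW (FDR 0.0238). An offset for the effective length of each transcript, also chosen after seeing the data, ended both calls of fabp7b, with 0.83 averaged (FDR 0.0538) and 0.80 in SW (FDR 0.0785), and put fabp7 at 0.87 (FDR 0.115) and 1.06 (FDR 0.116). On log2(TPM + 1) with limma, the averaged change was 0.58 (FDR 0.251) for fabp7 and 0.54 (FDR 0.247) for fabp7b. TPM divides reads by length, which is not an offset for a length trend that differs between libraries. It also carries no TMM adjustment.

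Red blood cell transcripts also moved with the groups. The 15 matched hemoglobin transcripts made up 4.59 to 11.4% of TPM in SPLL SW, 2.79 to 5.82% in SPLL FW, 2.73 to 4.00% in SP-hold SW and 3.86 to 5.44% in SP-hold FW. SPLL SW replicate 3 held the most, and reads for the fewest transcripts (54196, against 62912 to 70193 in the other libraries). It also had the highest CPM of fabp7 (4029) and of fabp7b (518). Without it, fabp7b rose by 0.76 in the averaged contrast (FDR 0.00795) and by 0.78 in SW (FDR 0.0209), and fabp7 had 0.75 (FDR 0.0645) and 0.85 (FDR 0.083). When TPM was rescaled without the hemoglobin transcripts, the averaged change was 0.61 for fabp7 and 0.57 for fabp7b, with FDR of 0.253 for each.

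Both transcripts were deeply covered: fabp7 had between 20832 and 74895 reads and fabp7b between 3441 and 9877 reads per library, of 15346418 to 26502552 assigned reads. The call of fabp7b in SW ended when any 1 of the SP-hold SW libraries was left out (FDR 0.108, 0.0508 and 0.0729 without replicates 1, 2 and 3). The averaged call ended without SPLL FW replicate 2 (FDR 0.0641), SP-hold FW replicate 2 (FDR 0.0517), SP-hold SW replicate 1 (FDR 0.0596) or SP-hold SW replicate 3 (FDR 0.0522), with estimates between 0.77 and 0.85.

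Seawater transfer was the second comparison. Neither transcript passed the test in either photoperiod group. In SPLL fish, SW against FW, fabp7 had a log2 fold change of -0.003 (SE 0.33, FDR 1.00) and fabp7b of -0.14 (SE 0.18, FDR 0.965). In SP-hold fish, where the light changed as well, fabp7 had -0.51 (SE 0.29, FDR 0.678) and fabp7b -0.33 (SE 0.16, FDR 0.573). The share of all transcripts called lower in SW was 0.0798% in SPLL fish and 0.0496% in SP-hold fish. The CPM of fabp7b did not overlap in SP-hold fish, at 190.4 to 213 CPM in SW and 220.0 to 299 CPM in FW, which held for 7.04% of transcripts tested, but its TPM did, at 125 to 196 TPM in SW and 128 to 179 TPM in FW. Its share of assigned reads, without the TMM adjustment, overlapped as well. SP-hold SW replicate 3 had 6282 of 26502552 reads, and SP-hold FW replicate 1 had 3441 of 15346418. The interaction, the photoperiod difference in SW minus that in FW, was 0.50 for fabp7 (SE 0.44, FDR 0.784) and 0.20 for fabp7b (SE 0.25, FDR 0.886), where 0.147% of transcripts were called higher. These seawater and interaction estimates were at most 2.04 times their SE.

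A further comparison set the paralogs against transcripts listed as markers of the glial cells in which FABP7 is known. Which cells of the SV express the listed transcripts was not measured. In each library, the TPM of the transcript was divided by the summed TPM of 13 transcripts from a list of radial glia and tanycyte markers. These included vim, an intermediate filament protein that made up most of the sum with 2738 TPM, gja1b, the gap junction protein connexin 43, and the transcription factors sox2, nkx2.1 and HES1. In whole tissue, fewer glial cells and less RNA per glial cell cannot be told apart. The summed markers were 0.331 to 0.501% of TPM in SPLL SW, 0.359 to 0.368% in SPLL FW, 0.362 to 0.520% in SP-hold SW and 0.317 to 0.439% in SP-hold FW, and so overlapped between the groups.

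Relative to these markers, both fabp7 and fabp7b were higher in SPLL fish. The ratio for fabp7 was 1.28, 1.62, 2.17 and 1.15 in the SPLL SW libraries and 1.48 and 1.69 in the SPLL FW libraries. It was 0.649, 0.969 and 0.933 in the SP-hold SW libraries and 1.00, 1.09, 1.15 and 1.11 in the SP-hold FW libraries. Within each salinity every SPLL library exceeded every SP-hold library, and across salinities the lowest SPLL SW value (1.148) lay just below the highest SP-hold FW value (1.149). The ratio for fabp7b ran between 0.0492 and 0.0707 in the 6 SPLL libraries. In the 7 SP-hold libraries it ran between 0.0345 and 0.0418, with no overlap. How many of all tested transcripts separate the groups when divided by the same marker sum was not computed. fabp7 (713 nt) is shorter than vim (2039 nt), and short transcripts were higher in SPLL libraries on the CPM scale. fabp7b, as modelled, is longer (2786 nt). No length offset was applied to the ratios, and the part of transcript length in them was not tested.

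The difference in log2 ratio between SPLL and SP-hold fish, averaged over FW and SW, was 0.69 for fabp7 and 0.66 for fabp7b. Each had p = 0.0019 in a 2-sided exact permutation test with labels exchanged within each salinity. This is the smallest p that the 525 arrangements allow (adjusted p = 0.0019 over the 2 tests). The study chose fabp7b on these libraries, and members and lists were chosen with earlier results known, so these p-values are not independent evidence. How many other transcripts reach this p was not computed. With each library left out in turn the differences were 0.60 to 0.76 for fabp7 and 0.60 to 0.69 for fabp7b (exact p of 0.00571 or less). On the CPM scale, which is not that of the ratio, the median log2 fold change of the marker list itself was 0.08, against -0.05 over all tested transcripts. In edgeR, 0 of its 13 transcripts passed the averaged contrast, although 6 had an unadjusted p under 0.05, as did 16.9% of all tested transcripts, and DESeq2 called 4 higher and 1 lower, where it called 9.27% of all in either direction. After vim, the most abundant markers were gja1b (ENSSSAT00000231651) and Id1 (ENSSSAT00000121977). On the CPM scale gja1b had a log2 fold change of -0.05 (SE 0.12, FDR 0.930) and Id1 of 0.41 (SE 0.13, FDR 0.135). vim had a log2 fold change of 0.15 (SE 0.12, FDR 0.618) on the CPM scale. Its mean TPM was lower in SPLL fish, at 2913 against 3063 in SW and 2295 against 2540 in FW. In SW alone, edgeR called another id1 transcript (ENSSSAT00000010660) and hopx higher (0.94 and 0.84, FDR 0.0498 and 0.0441). It called 1 nkx2.1 transcript lower (-0.55, FDR 0.0362). In this contrast 1.42% of transcripts were called higher and 1.63% lower. These 3 marker transcripts were named after their values were seen.

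**Figure D3:**
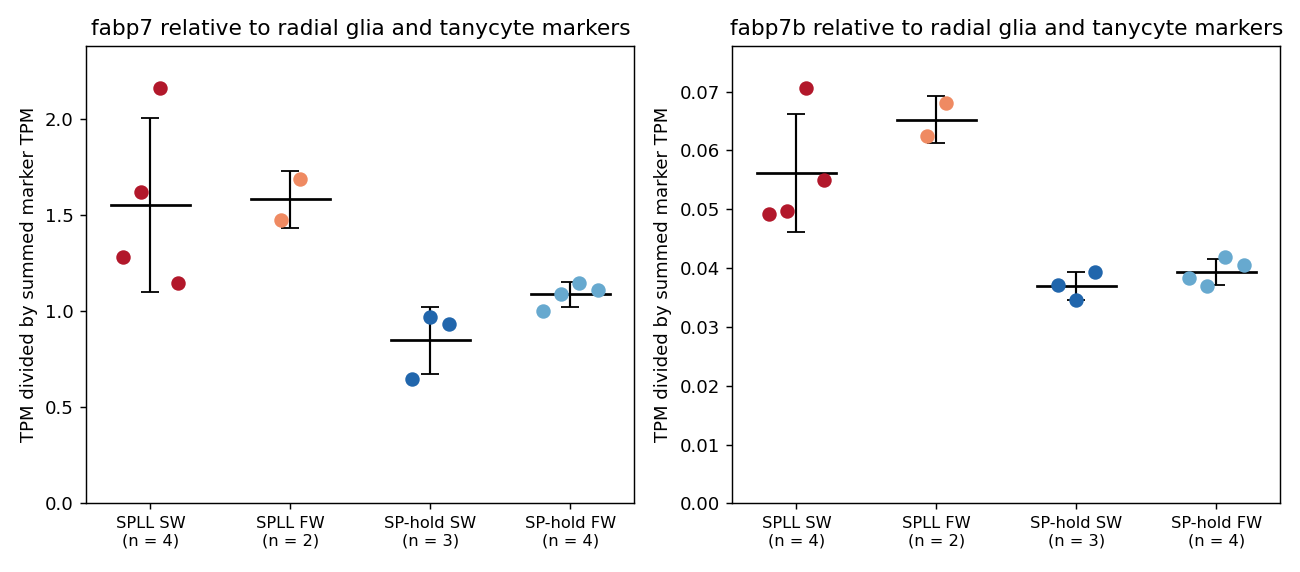
TPM of fabp7 (left) and fabp7b (right) divided by the summed TPM of 13 radial glia and tanycyte marker transcripts, in each library (points) with group means (lines) and SD (bars). The SPLL groups average 1.55 (SW) and 1.58 (FW) for fabp7, against 0.850 (SW) and 1.09 (FW) in the SP-hold groups.

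In CPM, the paralogs varied together from library to library, but this was not particular to the pair. Over all 13 libraries, group differences included, fabp7b was in place 71 of 1265 named transcripts for likeness to fabp7. fabp7 was in place 36 for likeness to fabp7b. How many transcripts reach the r of deviations given next was not computed. Because levels differed between the groups, the relation of their log2 CPM was taken on the deviations from the 4 group means. Over the 13 libraries, Pearson's r of the deviations was 0.802 (exact permutation p = 0.00752 with libraries exchanged within their group, adjusted p = 0.0113 over 3 tests) and Spearman's rho 0.753 (exact permutation p = 0.00969, adjusted p = 0.0185). Without SPLL SW replicates 3 and 4, whose fabp7 deviations were farthest from the median, r was 0.691 over the 11 left. Within each photoperiod, with FW and SW libraries pooled, r was 0.830 among the 6 SPLL libraries (exact permutation p = 0.0528, adjusted p = 0.0528) and rho 0.60 (exact permutation p = 0.242, adjusted p = 0.242). Among the 7 SP-hold libraries r was 0.867 (exact permutation p = 0.00278, adjusted p = 0.00833) and rho 0.893 (exact permutation p = 0.0123, adjusted p = 0.0185). These pooled values include any difference between FW and SW, and fabp7b CPM did not overlap between them in SP-hold fish. Without the 2 libraries farthest from the median of fabp7, r was 0.743 over 4 SPLL libraries and 0.854 over 5 SP-hold libraries. In CPM both transcripts also share the TMM adjustment of each library, and the relation was not computed in TPM. SP-hold SW replicate 1 had the lowest CPM of both. In TPM it had the lowest fabp7 (3377 TPM), but its fabp7b (193 TPM) lay above every SP-hold FW library. The libraries also share their red blood cell content and their length composition. The part of these and of the TMM adjustment in the relation was not tested.

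**Figure D4:**
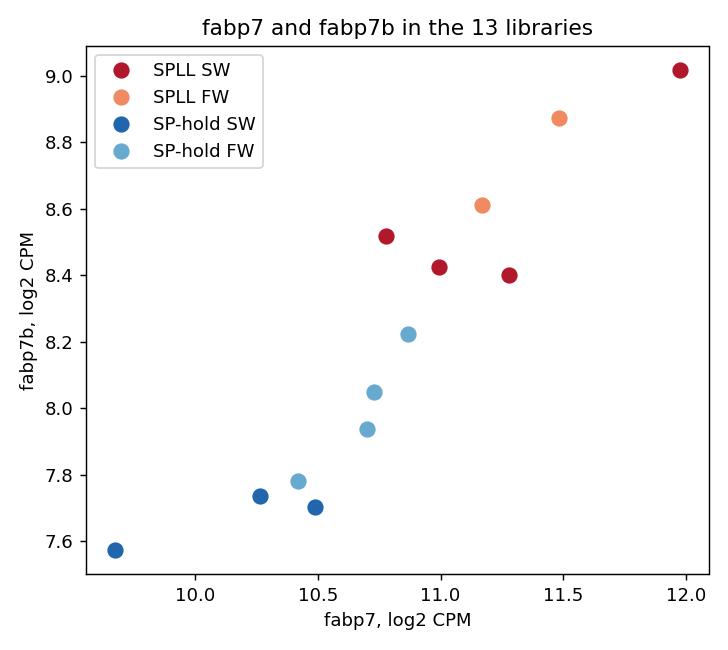
log2 CPM of fabp7 (x axis) against log2 CPM of fabp7b (y axis) in the 13 libraries, coloured by group. SPLL SW replicate 3 lies at the top right and SP-hold SW replicate 1 at the bottom left, and no SPLL library lies below an SP-hold library on the fabp7b axis.

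Other members of the protein family were looked for among the 1266 transcripts named in the shortened copy of the study's supplementary tables used here, so family members outside that copy were not analysed. It held 7 transcripts for intracellular lipid-binding proteins, and fabp7 made up 86.3% of the summed mean TPM of these 7. A transcript with the heart-type name FABPH (ENSSSAT00000082430), though matched to fabp4a of zebrafish and Fabp12 of mouse, followed at 276 ± 59.2 TPM. Then came fabp7b at 196 ± 45.7 TPM and rbp5, for a cellular retinol-binding protein, at 165 ± 24.0 TPM (SD, n = 13 each). A second FABPH transcript (ENSSSAT00000086044, matched to fabp3) had 73.1 ± 16.5 TPM. The transcript fabp4, with the adipocyte-type name but matched to Fabp9 of mouse, had 49.9 ± 17.2 TPM. rabp, for a cellular retinoic acid-binding protein, had 44.0 ± 15.6 TPM. These SDs include the group differences, and the order of fabp7b, the first FABPH transcript and rbp5 was not tested. Within SPLL SW, SPLL FW and SP-hold FW, every library value of the first FABPH transcript lay above every value of fabp7b. In SP-hold SW they overlapped, at 161 to 269 TPM for FABPH and 125 to 196 TPM for fabp7b.

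All 7 transcripts had a positive averaged photoperiod change, also under each alternative run, with a median of 0.78 against -0.05 over all tested transcripts. Of the 46383 tested transcripts, 21372 were positive, and the median was 0.37 for those under 1000 nt. The shift was not particular to this family: all 6 SV marker transcripts described below were also positive, with a median of 0.61. In the family, edgeR called 2 of the 7, fabp7b and fabp4 (0.272% of transcripts were called higher). fabp4 rose by 1.123 on the log2 scale in the average (SE 0.19, FDR 0.0392) and by 1.53 in SW (SE 0.26, FDR 0.0199), with 66.8 ± 11.6 TPM in SPLL SW (n = 4) against 32.4 ± 12.8 TPM in SP-hold SW (n = 3). The study had also placed fabp4 among its photoperiod-dependent transcripts on these libraries. In SW, FABPH (ENSSSAT00000082430) rose by 1.118 (SE 0.25, FDR 0.0447), with 323 ± 27.3 TPM in SPLL SW against 200 ± 60.0 TPM in SP-hold SW, which made 3 calls of 7 in a contrast where 1.42% of transcripts were called higher. Leaving out 1 library at a time, FABPH in SW stayed called in 1 of 13 fits, averaged fabp4 in 3 of 13 and averaged fabp7b in 9 of 13.

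Without fabp7 and fabp7b, the median of the other 5 was 0.69 averaged and 0.80 in SW. fabp4 (638 nt) and the first FABPH (894 nt) are short transcripts, and the length offset put averaged fabp4 at 0.71 (FDR 0.0801). In FW and in the seawater contrasts edgeR called 0 of the 7. An unadjusted p under 0.05 was found for 2 of the 7 for SPLL FW against SP-hold FW (8.66% of all tested transcripts), 4 for SW against FW in SP-hold fish (9.59% of all) and 0 for SW against FW in SPLL fish (10.5% of all).

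**Figure D5:**
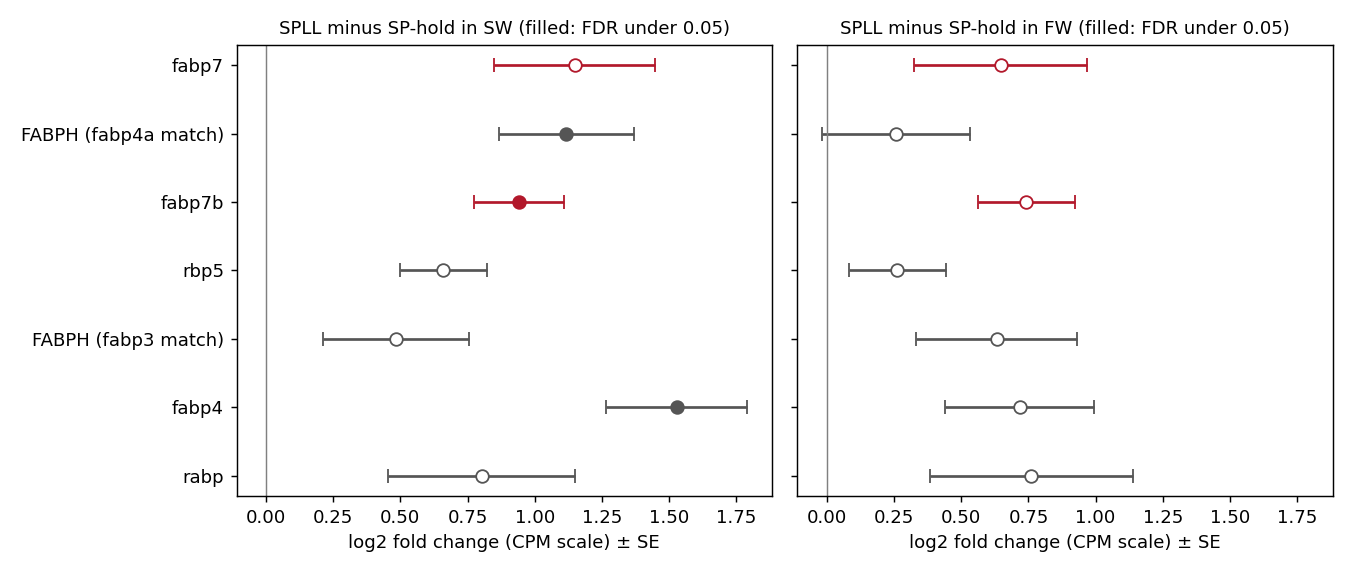
Log2 fold change (CPM scale, bars of 1 SE) of the 7 intracellular lipid-binding protein transcripts for SPLL against SP-hold fish in SW (left) and in FW (right), from the most abundant at the top; fabp7 and fabp7b are red and filled points have an FDR under 0.05. All points are positive, 3 are filled in SW (FABPH matched to fabp4a, fabp7b and fabp4) and none in FW.

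Other genes of lipid handling were taken as a list of 11 transcripts, led by 2 apoeb transcripts for apolipoprotein E, the main lipid carrier released by glia, with 1952 and 952 TPM. In the averaged contrast edgeR called 0 of 11, with 7 at an unadjusted p under 0.05 (16.9% of all tested transcripts), DESeq2 called 5 higher and 1 lower (9.27% of all in either direction), and the list's median was 0.40 against -0.05 over all tested transcripts. The apoeb transcripts had 0.53 (SE 0.15, FDR 0.118) and 0.40 (SE 0.18, FDR 0.278), and acbd7, for an acyl-CoA binding protein, had 0.62 (SE 0.19, FDR 0.131). In SW, edgeR called only srebf2 (-0.71, SE 0.11, FDR 0.0148), for a regulator of cholesterol synthesis, where 1.63% of transcripts were called lower. It was named after its values were seen. The paper names srebf2 among the transcripts that it chose on these libraries, so this call is not independent evidence. Other lipid transcripts of low level may have entered the list in the same way.

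Transcripts of the labelled tissue were also followed. The ependymin and parvalbumin transcripts used as SV markers made up 6.13 to 11.5% of TPM in each of the 13 libraries. The paper names parvalbumin as a known SV marker. It found the high ependymin level in these same libraries, so ependymin is not independent evidence of the tissue. All 6 transcripts had positive averaged photoperiod changes (median 0.61), with 0 called by edgeR. Of these, 4 had an unadjusted p under 0.05 (16.9% of all tested transcripts) and 3 were called by DESeq2 (9.27% of all). The pituitary marker gh1, for growth hormone, made up 0.000951 to 0.0411% of TPM in SPLL SW, 0.000141 to 0.0103% in SPLL FW, 0.000813 to 0.0019% in SP-hold SW and 0.000285 to 0.00152% in SP-hold FW. Its averaged photoperiod change was 3.44 (SE 0.99, unadjusted p = 0.00543, FDR 0.118 in edgeR), and DESeq2 called gh1 higher in the averaged contrast and in SW. The 15 neuronal markers summed to 0.113 to 0.203% of TPM over all libraries, the 9 markers of ciliated cells to 0.0429 to 0.0724%, and the macrophage marker cd74a, the oligodendrocyte marker Cnp and the endothelial marker egfl7 each to at most 0.0228%. In the averaged contrast edgeR called 0 of these, while 12 neuronal, 6 ciliated and 0 of the other 3 had an unadjusted p under 0.05 (16.9% of all tested transcripts). DESeq2 called 6 neuronal markers higher and 3 lower, and 4 ciliated markers higher and 2 lower, against 9.27% of all transcripts in either direction. In SW alone edgeR called 3 neuronal markers higher and 3 lower, 2 ciliated markers higher and egfl7 higher, against 1.42% of all transcripts higher and 1.63% lower. The study had chosen egfl7 (4.65 TPM) on these libraries, and other markers of low level may have entered the lists the same way. These counts are therefore not independent evidence, and the shares over all transcripts are not a like comparison. The part of these moving markers in the fabp7 and fabp7b values was not tested.

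Finally, the named transcripts most like each paralog were found by Pearson's r of log2 CPM over the 13 libraries, among 1265 others, as a description. Closest to fabp7 were fkbp2 (r = 0.979), for a prolyl isomerase of the endoplasmic reticulum, SMD3 (0.969), for a core protein of the spliceosome, VDAC2 (0.967), for a channel of the outer mitochondrial membrane, psma5 (0.964), for a proteasome subunit, and rpl22l1 (0.962), for a ribosomal protein. fabp7b was in place 71 with 0.925. Closest to fabp7b were selenot2 (0.973), for a selenoprotein, hmgb2a (0.973), for a chromatin protein, fcf1 (0.966), for a factor in ribosomal RNA processing, psph (0.964), for phosphoserine phosphatase, the last step of serine synthesis, and pgam1 (0.959), for a glycolytic enzyme. fabp7 was in place 36. These 10 transcripts were picked on all 13 libraries with the group differences included, so a photoperiod change in them follows in part from the choice. In the averaged contrast edgeR called psph (0.82, SE 0.11, FDR 0.0178) and fcf1 (0.80, SE 0.13, FDR 0.0387) higher in SPLL fish, where 0.272% of all transcripts were called higher. The study had chosen both on these libraries. None of the 5 closest to fabp7 passed, with changes of 0.53 to 0.84.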

How the data were processed

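The authors sequenced stranded, single-end mRNA libraries, trimmed reads with cutadapt and deposited, per transcript, estimated counts and TPM made with Salmon 1.1.0 on the Ssal_v3.1 transcriptome with correction for GC bias. They had excluded 3 libraries with few reads. Lengths and effective lengths in the deposited files were used for offsets.

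Estimated counts were rounded. The 46383 transcripts with a median TMM-normalised CPM of at least 0.77 were fitted in edgeR 4.0.16 (glmQLFit and glmQLFTest, TMM, 4 group means, 9 residual degrees of freedom), with thresholds of FDR 0.01 for the 4 groups and 0.05 for contrasts. Each SE was derived from the log2 fold change and its F statistic. P-values treat libraries as independent although fish shared duplicate tanks, and SPLL FW borrows its spread from the other groups. Alternatives were RLE size factors, DESeq2 1.42.0, other filters, a replicate block, limma 3.58.1 on log2(TPM + 1), only the compared groups, offsets for length and leaving out each library. Ratios and the paralog relation were tested by exact permutation in SciPy 1.17.1.

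Names come from a shortened copy of the study's supplementary tables, which names 1266 of 146780 transcripts, mostly abundant or chosen by the study, so lists cover only those and other members were not analysed here. The rule named all of the lipid-binding family, the 3 most abundant transcripts of the glial and lipid lists plus any called, and the 5 most alike. Other marker lists are given as sums in place of named transcripts. Members, lists and tests were chosen with earlier results of these data known.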

Additional observations from a re-analysis of the deposited data

Results flagged for a closer look

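fabp7b in SPLL SW replicate 3 was 518.3 CPM, far above the other 3 libraries of its group (338 to 366 CPM), by Dixon's test for a single outlying value. Chance marks about 1 in 20 groups this way. The same library had 234 TPM of fabp7b, inside the 191 to 262 TPM of its group. Its CPM carries the TMM adjustment. Without that adjustment, this library had 9635 of 23859213 assigned reads. That share is close to the share of SPLL SW replicate 4, with 8908 of 22343432.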

How the results depend on the processing

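Under every alternative run, including each library left out, fabp7 and fabp7b kept positive log2 fold changes in the 3 photoperiod contrasts. DESeq2 added calls: fabp7 over the 4 groups (FDR 0.00523), in SW (1.15) and averaged (0.89), and fabp7b over the 4 groups (FDR 3.17e-07) and in FW (0.73). A filter at a mean CPM of at least 5 added fabp7 in SW (1.123). The fabp7b call in SW was lost with no filter (0.91), with only the compared groups (0.93), with the effective-length offset (0.80), and with limma on log2(TPM + 1) with (0.47) or without (0.54) the hemoglobin transcripts. The averaged fabp7b call was lost with the effective-length offset (0.83) and with limma (0.54 and 0.57). Left-out libraries gave fabp7b 0.78 to 1.00 in SW and 0.76 to 0.90 averaged. The cause was not tested.

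Changes near 0 turned sign. SW minus FW in SPLL for fabp7 was 0.02 with RLE size factors and with DESeq2 (0.0200 in each), 0.0168 at a mean CPM of at least 5, 0.14 with limma, 0.19 with limma without hemoglobin, 0.0013 with only the compared groups, 0.0508 with the transcript-length offset and -0.30 to 0.16 over left-out libraries. For fabp7b, SW minus FW in SP-hold was 0.12 and 0.10 with limma with and without hemoglobin, that in SPLL was 0.0275 without hemoglobin, and the interaction was -0.15 and -0.0733 with limma and -0.0616 with the effective-length offset. The averaged change of vim was -0.10 and -0.0719 with limma, and that of gja1b was -0.12 to 0.00186 over left-out libraries. The share of fabp7 was 85.8% in reads in place of 96.2% of TPM.

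Whether replicate numbers pair the libraries was not settled. Of 16 same-numbered pairs 0 had a correlation of deviations over 0.1, but no differently numbered pair did either. The highest, 0.082, was between SP-hold FW replicate 1 and SP-hold SW replicate 1. The median r was 0.00155 for same and 0.000169 for different numbers, and 5 of 13 libraries correlated best with their own number. With the replicate block the averaged fabp7b change was 0.89 (FDR 0.0527) and that in SW 0.92 (FDR 0.048). The block took no other call from fabp7 or fabp7b. Counts of all transcripts called in the averaged contrast were 270 in edgeR, 6 to 4299 over the other alternatives and 87 to 495 over left-out libraries. In SW they were 1411, 109 to 5483 and 140 to 1344. Sums per gene were not run because the tables used pair no other transcript with these genes.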
